A study of Bos taurus with 34 samples.

Results

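The 8 miRNAs described here are bta-miR-17-5p, bta-miR-17-3p, bta-miR-18a, bta-miR-19a, bta-miR-19b, bta-miR-20a, bta-miR-20b and bta-miR-106a, taken by name from the 800 bovine mature miRNAs counted in each library. They were followed in small RNA from the cell-free fraction of blood of 17 dairy cows. Subclinical endometritis (SCE) is inflammation of the endometrium in a cow that shows no clinical signs, and status had been set from uterine cell smears and tissue. The question of the study was whether circulating miRNAs tell SCE cows from healthy ones.

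SCE cows numbered 11, each with 1 library at day 45 and 1 at day 25. Healthy cows numbered 6, with 6 libraries at day 45 and 5 at day 25, because both files of healthy cow 3 held identical values and only the one labelled day 45 was used. Which day those values belong to cannot be told, so results at day 45 and between days that rest on this library are also given without it. All cows were sampled after calving, no treatment separates the groups, and the sources used here do not give breed, parity or age. The sample labels give day 25 and day 45 and name the material as serum, while the design text gives 21 and 44 days and plasma; the labels' words are used below. Cell-free RNA is a mixture released by many cells, so more cells of a type and more RNA per cell cannot be told apart.

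As background, a miRNA is a short RNA that pairs with messenger RNAs through its seed, a stretch near its 5′ end, and lowers their translation and stability. The miR-17-92 cluster is a single primary transcript that holds the hairpins of miR-17, miR-18a, miR-19a, miR-20a, miR-19b and miR-92a. It is a target of the transcription factor MYC, is active in dividing cells and in developing lymphocytes, and is known for its role in lymphoma in mice and humans. A duplicated cluster on the X chromosome gives miR-106a, miR-18b, miR-20b and further copies of miR-19b and miR-92a, with miR-363. miR-17-5p, miR-20a, miR-20b and miR-106a share a seed and repress cell-cycle inhibitors and other targets in common. miR-19a and miR-19b share another seed. miR-18a has a seed of its own, and miR-17-3p is the opposite arm of the hairpin that yields miR-17-5p.

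RefSeq's gene list for the bovine assembly ARS-UCD2.0 gave the same arrangement. On chromosome 12, 6 hairpin genes follow each other in the order MIR17, MIR18A, MIR19A, MIR20A, MIR19B and MIR92A-1. On chromosome X, 6 follow in the order MIR363, MIR92A-2, MIR19B-2, MIR20B, MIR18B and MIR106A. Mature miR-19b can therefore come from both clusters and miR-19a, miR-17-5p, miR-17-3p, miR-18a and miR-20a from chromosome 12, while miR-20b and miR-106a come from chromosome X. miR-17-5p, miR-20a, miR-20b and miR-106a are near-identical in sequence, and the sources used here do not say how reads that match several names were counted, so the split of reads among these 4 is uncertain. None was a copy of another row. Among all names, the closest counts to those of a member were between miR-20a and miR-18a. Their absolute differences per library, summed over libraries, came to 13.35% of the larger of their total counts.

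Total counts ran from 678389 to 19747294 in SCE libraries and from 7398849 to 28872153 in healthy libraries, and 348 to 646 miRNAs were detected per library. The red blood cell miRNA miR-486 took a median of 10.8% of counts in SCE cows and 45.3% in healthy cows at day 25, and at day 45 a median of 36.5% in SCE cows and 48.0% in healthy cows. In a principal component analysis of 212 miRNAs that left out the 8 members, 4 libraries stood at one end of the second component, which held 18.03% of the variance. They were SCE cow 8 at day 45, with a score of -12.0, SCE cow 14 at day 45, with -11.9, healthy cow 4 at day 25, with -18.2, and healthy cow 3 at day 45, with -8.88; the next library had -6.26. These 4 detected 366 to 401 miRNAs, and the other 29 detected 348 to 646, with a median of 542, so low detection was not confined to the 4. Results are given below with and without them. Libraries of 1 day come from separate cows, so p-values between statuses measure the spread between cows. The fits between days hold both libraries of a cow as independent unless the cow is given as a block.

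The members made up between 0.0152% and 0.914% of all counts in a library. Levels are given as CPM, counts scaled to library size by TMM, which sets the typical miRNA equal between libraries. miR-19b was the most abundant, with a median of 487 CPM over the 33 libraries, followed by miR-17-5p with 303 CPM and miR-19a with 152 CPM. miR-20a had a median of 65.3 CPM and miR-18a of 58.3 CPM. miR-17-3p followed with 16.2 CPM, and the X-linked miR-106a and miR-20b came last with 3.09 and 1.04 CPM. By mean level they ranked from 63 for miR-19b to 314 for miR-20b among the 800 names. Mature miRNAs are of about the same length, so CPM can be compared between them, although adapter ligation is known to favour some sequences over others.

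This order held in most libraries but the ranges of all neighbours overlapped. miR-19b exceeded miR-17-5p in 27 of 33 libraries and miR-17-5p exceeded miR-19a in 28. miR-20a exceeded miR-18a in only 21 of 33, with medians 1.12-fold apart, so these 2 did not differ beyond their spread. miR-19a exceeded miR-20a, miR-18a exceeded miR-17-3p and miR-17-3p exceeded miR-106a in 33 of 33 libraries each. miR-106a exceeded miR-20b in 31, with equal counts in 1.

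The 2 X-linked members rested on few reads. miR-106a had between 1 and 162 counts per library, with a median of 29, and miR-20b between 0 and 48 counts, with a median of 14. miR-20b had no count in the day-25 libraries of SCE cow 7 and healthy cow 6. A count of 0 there allows up to 1.141 CPM in the SCE cow and up to 0.839 CPM in the healthy cow after TMM scaling, at 3 counts of the total and for counting error only, which is near the median of all libraries. The other 6 members had at least 24 counts in every library. miR-92a, which both clusters also encode, averaged 9082 CPM by library totals, while miR-19b averaged 945 on that scale.

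**Figure D1:**
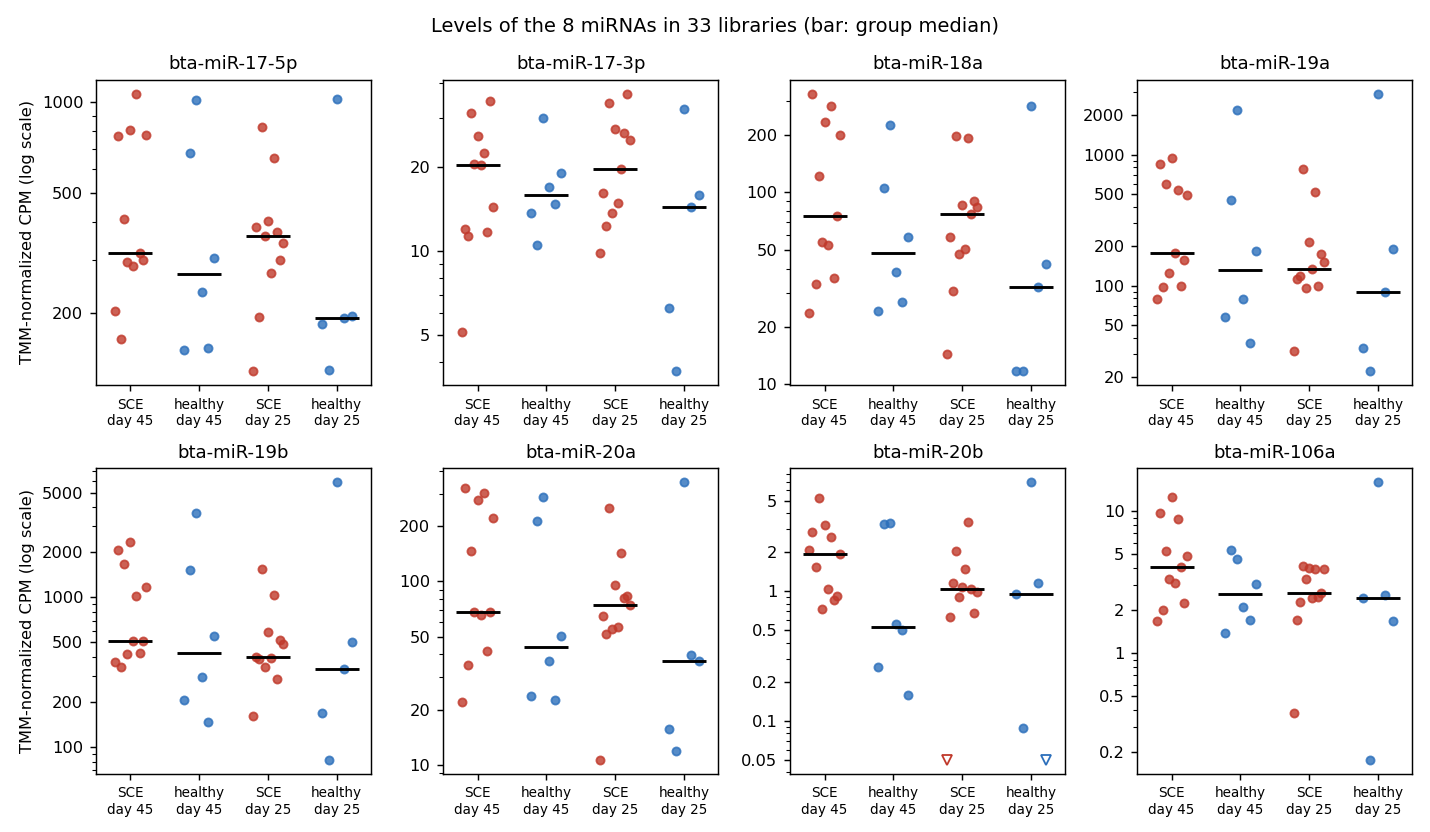
Each point is 1 library, the vertical axis is CPM after TMM scaling on a log scale, and bars are group medians; open triangles mark the 2 libraries with no count of miR-20b and are placed at the foot of the axis. In 7 of 8 panels the highest day-25 value belongs to healthy cow 4, although the SCE median lies above the healthy median in every panel at both days.

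At day 25, no member passed the test between SCE and healthy cows, and 1 healthy library lay far above the rest for most of them. miR-19a ranged from 31.6 to 783 CPM in SCE cows, with a median of 135, against 33.4, 22.3, 2920, 89.1 and 189 CPM in healthy cows 1, 2, 4, 5 and 6. miR-19b ranged from 162 to 1536 CPM in SCE cows, with a median of 402, against 169, 82.4, 5847, 330 and 507 CPM in the same 5 healthy cows. Healthy cow 4 thus lay above all 11 SCE cows for both, while the other 4 healthy cows lay within or below the SCE range. The log2 fold change, SCE over healthy, was -1.58 for miR-19a (SE 0.82, adjusted p = 0.27 by edgeR's quasi-likelihood test) and -1.33 for miR-19b (SE 0.68, edgeR adjusted p = 0.26).

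The miR-17 seed members showed the same healthy library apart from the rest. miR-17-5p ranged from 128 to 825 CPM in SCE cows, with a median of 359, against 184, 129, 1028, 192 and 194 CPM in healthy cows 1, 2, 4, 5 and 6. miR-20a ranged from 10.7 to 250 CPM in SCE cows, with a median of 73.9, against 15.7, 11.9, 346, 39.7 and 36.7 CPM in those healthy cows. For both, 10 of 11 SCE cows lay above the healthy median and healthy cow 4 lay above every SCE cow. The edgeR log2 fold change was 0.12 for miR-17-5p (SE 0.48, adjusted p = 0.90) and -0.064 for miR-20a (SE 0.66, adjusted p = 0.96).

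miR-18a ranged from 14.5 to 198 CPM in SCE cows, with a median of 76.8, against 11.7, 11.7, 281, 31.98 and 42.5 CPM in healthy cows 1, 2, 4, 5 and 6. Here 9 of 11 SCE cows lay above the healthy median, and the log2 fold change was 0.13 (SE 0.66, edgeR adjusted p = 0.93). miR-17-3p ranged from 9.89 to 36.7 CPM in SCE cows, with a median of 19.7, against 6.27, 3.72, 32.3, 14.4 and 16.0 CPM in healthy cows 1, 2, 4, 5 and 6. It was the only member for which healthy cow 4 did not exceed every SCE cow; its log2 fold change was 0.53 (SE 0.47, edgeR adjusted p = 0.52). miR-106a and miR-20b had log2 fold changes of -0.71 and -0.63, with healthy cow 4 at 15.9 and 6.93 CPM and every other day-25 library at or below 4.07 and 3.42 CPM.

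Counted together at day 25, 3 members were higher and 5 lower in SCE cows, with a median log2 fold change of -0.35, and over all 372 miRNAs tested the median was -0.053. edgeR called 0 of 8 members at an adjusted p of 0.05, against 0.269% of all miRNAs tested. At an unadjusted p of 0.05 it called 0 of 8 as well, against 20.2% of all, and DESeq2 called 0 of 8 at its adjusted p, against 2.68% of 522. By medians, all 8 members were higher in SCE cows, between 1.08-fold for miR-20b and 2.40-fold for miR-18a, and no member had groups that did not overlap. These counts were not made over all miRNAs, so they describe the members only.

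Without healthy cow 4 all 8 members were higher in SCE cows at day 25. The log2 fold changes then ran from 0.69 for miR-106a to 1.76 for miR-18a, with miR-20a at 1.73, miR-19a at 1.37, miR-17-5p at 1.11 and miR-19b at 1.01. Unadjusted p was under 0.05 for miR-17-5p, miR-17-3p, miR-18a and miR-20a, and under that mark for 22.9% of all 388 miRNAs tested. No member passed adjustment, with a lowest edgeR adjusted p of 0.16. The median of all miRNAs was 0.072 in this fit and that of the members 1.09. Healthy cow 4 had the highest healthy value at day 25 for 8 of 8 members. Leaving it out therefore lowers the healthy levels, and this fit gives no separate support for a difference. The members were also correlated with each other, so those with an unadjusted p under 0.05 are not separate results.

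The day-25 library of healthy cow 4 also differed in measures outside these miRNAs. It detected 366 miRNAs, the fewest at day 25, and miR-486 took 24.8% of its counts, the lowest share among healthy cows at that day. The level of miR-451, a red blood cell miRNA, over that of miR-23a was, in log2, -0.35 in it and 1.39 to 5.32 in the other 4 healthy libraries. With that ratio as a covariate, log2 fold changes at day 25 lay between -0.71 and 0.46, and edgeR called 0 of 8 members and 2 of all 372 miRNAs. With the log2 level of miR-486 over miR-23a in its place, they lay between -1.94 and 0.023, with 7 of 8 members lower in SCE cows. In that fit 3 of 8 had an unadjusted p under 0.05, against 12.6% of all miRNAs, and edgeR called 0 of 8 members and 1 of all 372 miRNAs after adjustment. The part of the number of miRNAs detected was not tested.

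**Figure D2:**
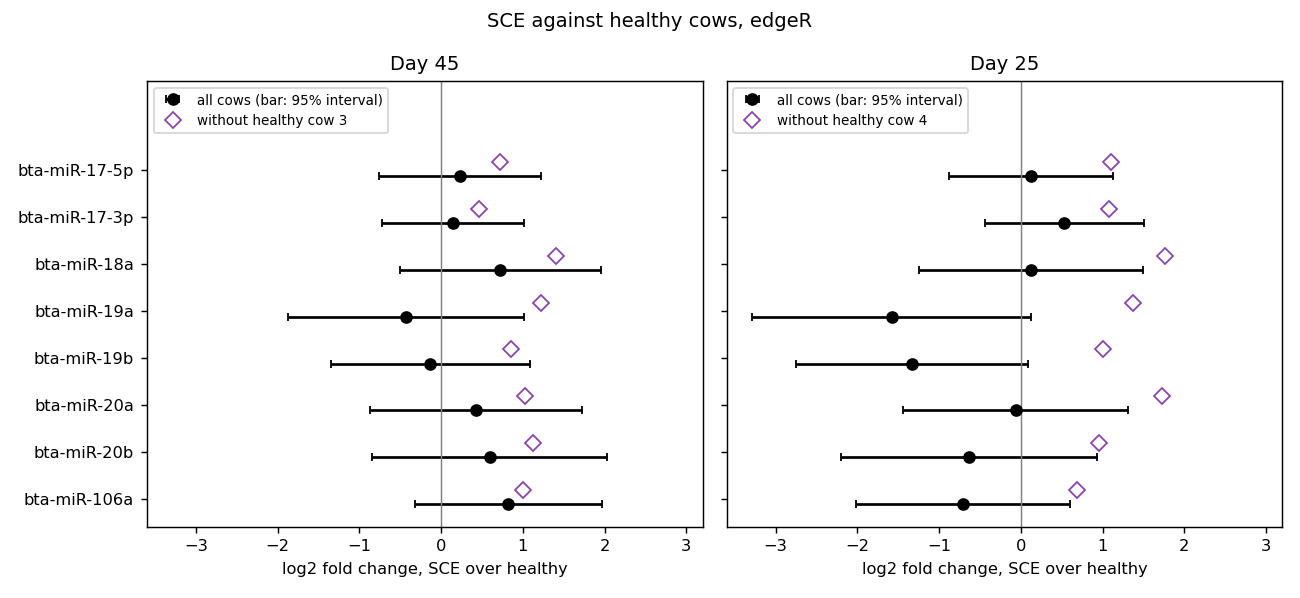
Filled points are edgeR log2 fold changes, SCE over healthy, with 95% intervals; open diamonds leave out 1 healthy cow. Every interval with all cows spans 0, and without healthy cow 4 at day 25 or healthy cow 3 at day 45 all 8 estimates lie to the right of 0. Healthy cow 4 had the highest healthy value of all 8 at day 25. Healthy cow 3 had that of all but miR-106a at day 45, so leaving them out lowers the healthy levels.

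At day 45, no member passed the test between statuses either, and 6 of 8 had positive log2 fold changes. miR-19a ranged from 78.6 to 946 CPM in SCE cows, with a median of 177, and from 36.7 to 2172 CPM in healthy cows, with a median of 131. miR-19b ranged from 342 to 2345 CPM in SCE cows, with a median of 510, and from 147 to 3666 CPM in healthy cows, with a median of 424. The highest value of each belonged to healthy cow 3, one of the 4 libraries set apart. Their log2 fold changes were -0.43 (SE 0.70, edgeR adjusted p = 0.87) and -0.13 (SE 0.59, edgeR adjusted p = 0.96).

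The other seed groups leaned the other way with as little separation. miR-17-5p ranged from 163 to 1068 CPM in SCE cows, with a median of 315, and from 151 to 1014 CPM in healthy cows, with a median of 268. miR-18a ranged from 23.4 to 327 CPM in SCE cows, with a median of 75.2, and from 24.0 to 224 CPM in healthy cows, with a median of 48.4. miR-106a ranged from 1.67 to 12.6 CPM in SCE cows, with a median of 4.06, and from 1.38 to 5.34 CPM in healthy cows, with a median of 2.59. The largest log2 fold change among the members was that of miR-106a, 0.82 (SE 0.56, edgeR adjusted p = 0.64). For it, 3 SCE cows exceeded the highest healthy cow. The log2 fold changes of miR-18a, miR-20b, miR-20a, miR-17-5p and miR-17-3p were 0.72, 0.60, 0.43, 0.23 and 0.14.

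At day 45 edgeR called 0 of 8 members, against 0% of 382 miRNAs tested. It called 0 of 8 at an unadjusted p of 0.05, against 10.2% of all, and DESeq2 called 0 of 8, against 0.134% of 748. The median log2 fold change was 0.33 over the members and 0.11 over all miRNAs. Without healthy cow 3, log2 fold changes ran from 0.47 for miR-17-3p to 1.41 for miR-18a, with miR-19a at 1.23 and miR-19b at 0.85, and the lowest edgeR adjusted p was 0.46. Without the 3 day-45 libraries set apart they ran from 0.42 to 1.01. Healthy cow 3 had the highest healthy value at day 45 of every member but miR-106a, so leaving it out lowers the healthy levels.

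With the counts of both days summed per cow, 6 of 8 members were higher in SCE cows and edgeR called 0 of 8, against 0.239% of 418 miRNAs. It called 0 of 8 at an unadjusted p of 0.05, against 16.5% of all, and DESeq2 called 0 of 8, against 5.24% of 286. The log2 fold changes ran from -1.001 for miR-19a (SE 0.65, edgeR adjusted p = 0.40) to 0.48 for miR-18a (SE 0.54, edgeR adjusted p = 0.66). Without the 4 libraries set apart all 8 were positive, from 0.70 for miR-17-3p to 1.40 for miR-18a. In that fit 6 of 8 had an unadjusted p under 0.05, against 20.3% of all 433 miRNAs, and the lowest edgeR adjusted p was 0.14. The fit was chosen after seeing the data, and the members were correlated with each other, so the 6 are not separate results. The sums of healthy cow 3 hold its day-45 library alone.

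Within SCE cows, 7 of 8 members had higher fitted levels at day 45 than at day 25, and none passed the test. miR-19b ranged from 342 to 2345 CPM at day 45, with a median of 510, and from 162 to 1536 CPM at day 25, with a median of 402. It was higher at day 45 in 8 of 11 cows, and its log2 fold change, day 45 over day 25, was 0.80 (SE 0.40, edgeR adjusted p = 0.71). miR-106a ranged from 1.67 to 12.6 CPM at day 45, with a median of 4.06, and from 0.38 to 4.07 CPM at day 25, with a median of 2.66. It was higher in 8 of 11 cows, with a log2 fold change of 0.81 (SE 0.40, edgeR adjusted p = 0.71). The days overlapped for both.

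miR-19a, miR-20a, miR-18a, miR-20b and miR-17-5p had log2 fold changes of 0.78, 0.73, 0.63, 0.61 and 0.34 between days in SCE cows. miR-17-3p was the exception, at -0.19, with 8 of 11 cows lower at day 45. The median was 0.68 over the members and -0.11 over all 346 miRNAs tested. edgeR called 0 of 8 members, against 0% of all miRNAs; at an unadjusted p of 0.05 it called 0 of 8, against 4.05% of all, and DESeq2 called 0 of 8, against 0% of 773. With the cow as a block, 1 of 8 members, miR-19b, had an unadjusted p under 0.05, against 6.94% of all 346 miRNAs. Its edgeR adjusted p was 0.60. Without SCE cows 8 and 14 at day 45, which are among the libraries set apart, the members' log2 fold changes lay between -0.18 and 0.60.

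The SCE cows varied among themselves. In cows 7, 8, 12, 13 and 17, at least 7 of 8 members were higher at day 45, with a median log2 change per cow of 2.34 in cow 8, 1.56 in cow 12, 1.21 in cow 17, 1.04 in cow 7 and 0.28 in cow 13. In the other 6 SCE cows that median lay between -0.26 and 0.38. miR-19a, for example, was 852 CPM at day 45 against 112 at day 25 in cow 8, and 946 against 215 in cow 12, while in cow 16 it was 158 against 175.

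In healthy cows the day change differed in direction between cows. All 8 were higher at day 45 in healthy cow 2, with a median log2 change of 4.19, and all 8 were lower in healthy cow 4, with a median of -3.08. miR-19a was 57.6, 448, 79.5, 36.7 and 183 CPM at day 45 in cows 1, 2, 4, 5 and 6, against 33.4, 22.3, 2920, 89.1 and 189 CPM at day 25. It was thus higher in 2 cows and lower in 3. miR-17-5p was 151, 676, 234, 152 and 303 CPM at day 45, against 184, 129, 1028, 192 and 194 CPM at day 25 in the same cows, also higher in 2 of 5.

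Fitted over all healthy libraries, log2 fold changes between days ran from -0.55 for miR-106a (SE 0.88) to 0.38 for miR-17-5p (SE 0.67), each with an edgeR adjusted p of 0.9999. miR-20b had too few counts to be tested here. edgeR called 0 of the 7 tested members, against 0% of 345 miRNAs; at an unadjusted p of 0.05 it called 0 of 7, against 2.9% of all, and DESeq2 called 0 members, against 0% of 695. Without healthy cow 4 all 7 tested members were higher at day 45, from 0.98 for miR-17-3p to 3.14 for miR-19a, and without healthy cow 3 all 7 were lower, from -1.98 for miR-19a to -0.0070 for miR-17-3p. In the fit without healthy cow 4, 5 of 7 members had an unadjusted p under 0.05, against 6.94% of all 346 miRNAs, and the lowest edgeR adjusted p was 0.23. Healthy cow 4 had the highest healthy value of every member at day 25. Healthy cow 3 had that of every member but miR-106a at day 45. Fits without either cow therefore give no separate support for a day change. Without both healthy libraries set apart the 7 log2 fold changes lay between 0.64 and 1.63.

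The difference of the day change, SCE minus healthy, ranged from -0.45 to 1.48 on the log2 scale, with 7 of 8 members positive. edgeR called 0 of 8, against 0% of 406 miRNAs; at an unadjusted p of 0.05 it called 0 of 8, against 1.72% of all, and DESeq2 called 0 of 8, against 0% of 791. Without healthy cow 4 the range was -2.02 to 0.020, with 1 of 8 positive. Without healthy cow 3 it was -0.21 to 2.87, with 7 of 8 positive, and without the 4 libraries set apart -1.20 to -0.056, with none positive. No difference in day change between the statuses was detected for any member, and its direction turned without healthy cow 4. With limma 4 of 8 members were positive.

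**Figure D3:**
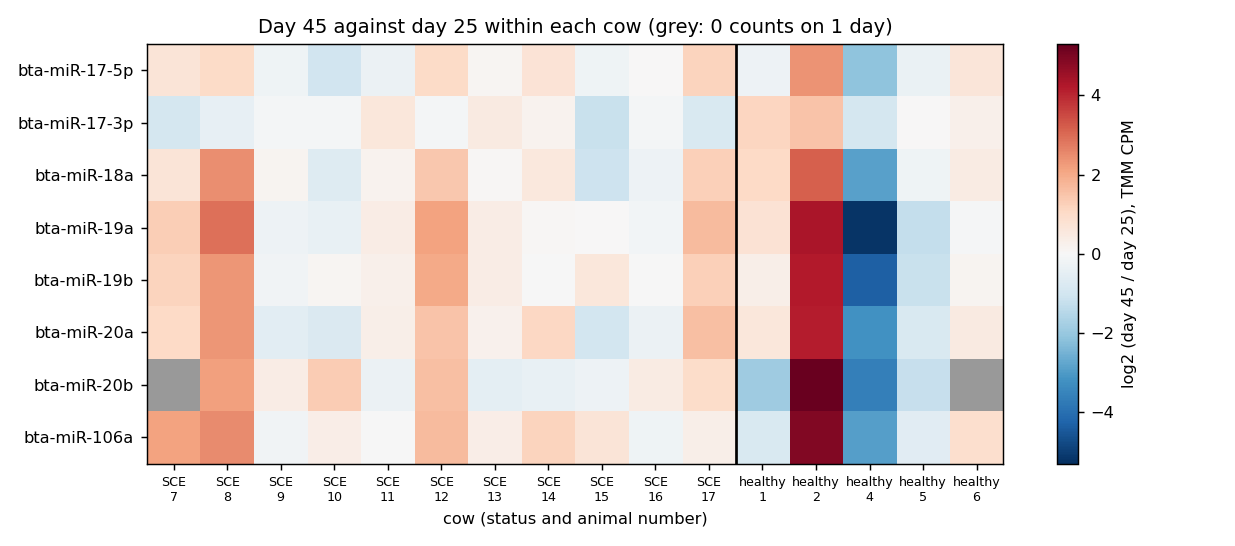
Colour gives the log2 ratio of day-45 to day-25 CPM for each member (rows) in each of 16 cows with both days (columns), SCE cows left of the line and healthy cows right of it; grey cells have 0 counts on 1 day. Healthy cow 2 is red in all 8 rows and healthy cow 4 blue in all 8.

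The members were correlated with each other across the 17 cows. With counts summed per cow, Spearman's rho between miR-19a and miR-19b was 0.99 and Pearson's r of log2 CPM 0.99. Between miR-18a and miR-20a rho was 0.97 and r 0.98, and between miR-17-5p and miR-20a rho was 0.96 and r 0.97. Among the 21 pairs without miR-17-3p, rho ran from 0.64 to 0.99. The 7 pairs with miR-17-3p had rho from 0.39 to 0.70, the lowest being with miR-20b.

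Of the 28 pairs, 27 had a permutation p of rho under 0.05 after Benjamini-Hochberg adjustment over the 28, and the exception was miR-17-3p with miR-20b (adjusted permutation p = 0.12). Within SCE cows r was 0.99 for miR-19a with miR-19b and 0.055 for miR-17-3p with miR-20b, and within healthy cows it was 0.9994 and 0.32. Without the 2 cows farthest from the median, r was 0.99 for miR-19a with miR-19b and 0.97 for miR-18a with miR-20a. The points of each pair share a library, its depth and its scaling.

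The arms of the miR-17 hairpin kept no fixed ratio. miR-17-5p had 15.8 times the counts of miR-17-3p in the median library, between 8.14 and 63.9 times. In the 4 libraries set apart the ratio was 31.8 to 63.7. In the other 29 its median was 14.6 and its range 8.14 to 63.9, so high ratios were not confined to the 4. Among SCE cows its log2 averaged 4.596 ± 0.98 at day 45 (SD, n = 11) and 4.11 ± 0.58 at day 25 (SD, n = 11), higher at day 45 in 7 of 11 cows (exact sign-flip permutation p = 0.13, adjusted p = 0.74). Ratios within a library do not depend on the scaling between libraries.

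miR-19b had 3.2001 times the counts of miR-19a in the median library, between 1.69 and 5.12 times. It was lowest in healthy cow 3 at day 45, at 1.69, and in SCE cow 14 at day 45, at 1.89. At day 25 its log2 averaged 1.59 ± 0.39 in SCE cows (SD, n = 11) and 1.71 ± 0.51 in healthy cows (SD, n = 5; exact permutation p = 0.62, adjusted p = 0.88). At day 45 it averaged 1.58 ± 0.39 in SCE cows (SD, n = 11) and 1.64 ± 0.46 in healthy cows (SD, n = 6; exact permutation p = 0.77, adjusted p = 0.88).

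miR-20a had 0.217 times the counts of miR-17-5p in the median library, between 0.0847 and 0.421 times, and miR-106a had 0.00936 times, between 0.00172 and 0.0157 times. Among SCE cows the log2 ratio of miR-106a to miR-17-5p was -6.55 ± 0.42 at day 45 and -7.04 ± 0.52 at day 25 (SD, n = 11 for both). It was higher at day 45 in 9 of 11 cows, by 0.49 on average, with an exact sign-flip permutation p of 0.045 and an adjusted p of 0.72 over the 16 ratio tests. None of the 16 passed adjustment. With 5 healthy cows at both days, the smallest two-sided p of the sign-flip test is 0.0625, so no healthy day change could have passed.

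The 2 miR-19 members took the larger part of the group's counts in most libraries. At day 25 their share ran from 40.6% to 63.9% in SCE cows, with a median of 56.5%, and was 83.7% in healthy cow 4 and 40.1% to 70.5% in the other 4 healthy cows. At day 45 it ran from 48.0% to 75.9% in SCE cows, with a median of 61.5%, and from 45.6% to 78.9% in healthy cows, with a median of 59.2%. The 4 members with the miR-17 seed took a median of 35.8% in SCE cows and 33.6% in healthy cows at day 25. The highest share of the miR-19 pair at each day thus belonged to a healthy library set apart. Of the SCE libraries set apart, that of cow 14 at day 45 had 48.0%, the lowest SCE share at that day. That of cow 8 had 66.8%.

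**Figure D4:**
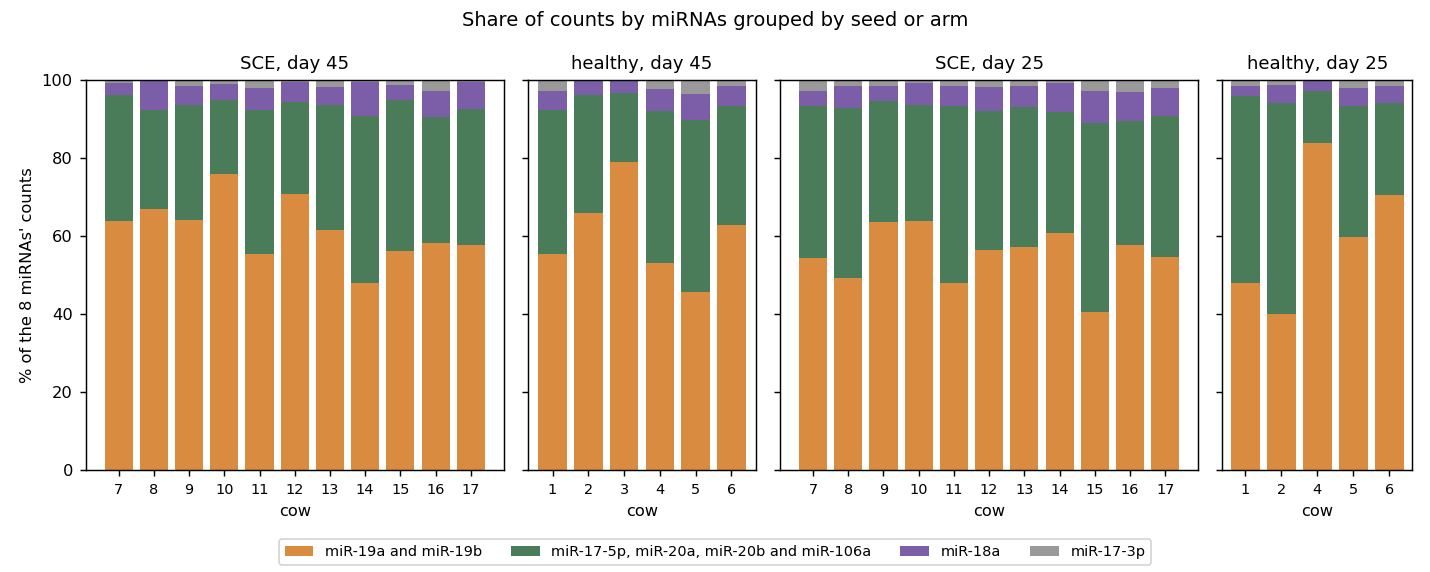
Bars show, for each cow, the percentage of the 8 miRNAs' counts that falls to the miR-19 pair, to the 4 miRNAs of the miR-17 seed, to miR-18a and to miR-17-3p. The miR-19 pair reaches 83.7% in healthy cow 4 at day 25 and 78.9% in healthy cow 3 at day 45.

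The miRNAs outside the group nearest to it in pattern were looked up among 410 candidates, by Spearman's rho over the 17 cows. For miR-17-5p they were miR-223 (rho 0.95, Pearson's r 0.93), miR-545-5p (rho 0.92, r 0.92) and miR-301a (rho 0.91, r 0.90). miR-223 is a miRNA of myeloid cells and platelets. For miR-18a they were miR-142-3p (rho 0.96, r 0.92), a miRNA of blood-forming cells, then miR-545-5p (rho 0.94, r 0.93) and miR-2285am-5p (rho 0.93, r 0.93).

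miR-19a and miR-19b shared all 3 of their nearest miRNAs. miR-545-5p had rho 0.92 with miR-19a and 0.89 with miR-19b, miR-301a 0.90 and 0.87, and miR-21-5p, which is abundant in many cell types including immune cells, 0.89 and 0.88. miR-20a was nearest to miR-545-5p (rho 0.93, r 0.91), miR-2285am-5p (rho 0.89, r 0.89) and miR-223 (rho 0.89, r 0.89). miR-106a was nearest to miR-142-3p (rho 0.92, r 0.89), miR-223 (rho 0.90, r 0.86) and miR-2285am-5p (rho 0.83, r 0.81).

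miR-17-3p and miR-20b had looser neighbours. For miR-17-3p they were miR-2285dc (rho 0.79, r 0.71), miR-33a (rho 0.79, r 0.80), which lies in an intron of a gene of sterol metabolism, and miR-339a (rho 0.78, r 0.79). For miR-20b they were miR-301a (rho 0.71, r 0.58), miR-34a (rho 0.71, r 0.62), a target of p53, and miR-545-5p (rho 0.70, r 0.63). miR-545-5p stood among the 3 nearest for 6 of the 8 members, at a geometric mean of 7.85 CPM, and miR-2285am-5p averaged 1.27 CPM. These correlations are descriptions over 17 cows whose values share a library, its depth and its scaling.

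**Figure D5:**
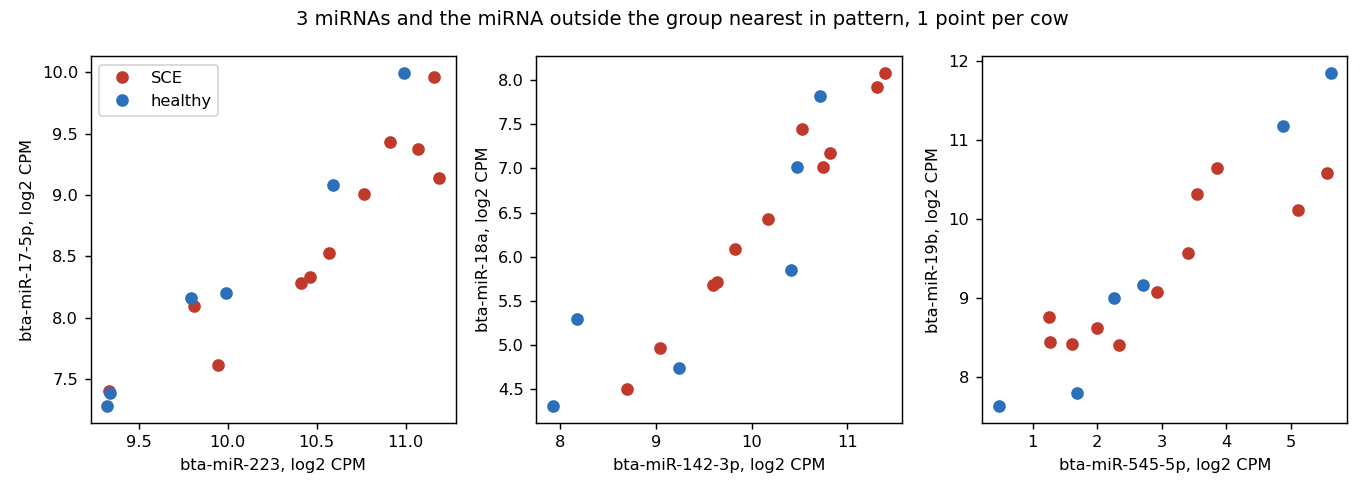
Each point is 1 cow with its counts summed over days, both axes are log2 CPM after TMM scaling, and each panel sets a member against the miRNA outside the group of highest Spearman's rho. Over all 17 cows rho is 0.95, 0.96 and 0.89 from left to right, and whether the statuses share a trend was not tested. In the right panel healthy cows 3 and 4, at 11.8 and 11.2, lie above SCE cows 8 and 14, at 10.6 and 10.1, at similar levels of miR-545-5p.

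By library totals the platelet, lymphocyte and myeloid lists had higher medians in SCE cows, and the red blood cell list, most of it miR-486, a lower one. On that scale the median log2 fold change of all miRNAs, SCE over healthy, was itself 0.88 at day 25 and 0.71 at day 45. At day 25 the 4 myeloid miRNAs summed to 5146 to 48563 CPM by library totals in SCE cows, with a median of 36982, and to 4914 to 37926 in healthy cows, with a median of 9274. The 4 platelet miRNAs summed to 669 to 11067 in SCE cows, with a median of 5263, and to 661 to 5540 in healthy cows, with a median of 2309. The 4 lymphocyte miRNAs summed to 3316.5 to 32344 in SCE cows, with a median of 13015, and to 2780 to 13803 in healthy cows, with a median of 5383. Every miRNA of these 3 lists was detected in every library, the ranges of SCE and healthy cows overlapped, and miR-223 is on both the myeloid and the platelet list. Their part in the members' levels was not tested.

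At day 45 the median of the myeloid list was 26645.5 in SCE cows and 13276 in healthy cows. That of the platelet list was 4651 in SCE cows and 3328.5 in healthy cows, and that of the lymphocyte list 10862 in SCE cows and 4526 in healthy cows. In log2, these ratios of medians were 1.01 for the myeloid, 0.48 for the platelet and 1.26 for the lymphocyte list. The platelet value is below the 0.71 of all miRNAs, but the 0.71 is a median of fitted fold changes, an unlike measure. The 3 red blood cell miRNAs had medians of 114887 in SCE cows and 453805 in healthy cows at day 25. At day 45 they had 368882 in SCE cows and 485877 in healthy cows. Of these, miR-451 and miR-144 had higher medians in SCE cows at day 25, 4977 against 3871 CPM and 120 against 56.2 CPM. At day 45 miR-451 had 4723 CPM in SCE cows against 4651 in healthy cows, and miR-144 97.8 against 130. The 4 liver miRNAs had medians of 34653 in SCE cows and 45792 in healthy cows at day 25. Most of that sum was miR-192, with 28138 CPM in SCE cows against 40496 in healthy cows. miR-122, miR-194 and miR-148a had higher medians in SCE cows, 5.67 against 5.27, 68.8 against 53.3 and 6343 against 5257 CPM. The 4 striated muscle miRNAs had medians of 33.8 in SCE cows and 8.8 in healthy cows at day 25. Of these, miR-133a had medians of 12.7 CPM in SCE cows against 7.75 in healthy cows, and miR-499 17.7 against 2.25. miR-1 and miR-206 were at a median of 0 in every group. In SCE cow 10 at day 45, the library with the lowest total count, miR-1 was at 41.3, miR-206 at 16.2 and miR-133a at 539.5 CPM.

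Across the 17 cows none of the 16 relations of a member to depth or to red blood cell RNA passed adjustment. With log10 total count, Pearson's r was -0.47 for miR-17-5p (permutation p = 0.049, adjusted p = 0.17) and Spearman's rho -0.41 (permutation p = 0.10, adjusted p = 0.31). For miR-19b r was -0.48 (permutation p = 0.049, adjusted p = 0.17) and rho -0.31 (permutation p = 0.22, adjusted p = 0.34). Without the 2 cows farthest from the median total, r was -0.24 for miR-17-5p and -0.16 for miR-19b, and within SCE cows -0.21 and -0.33. Within the 6 healthy cows r was -0.86 and -0.77, but healthy cow 3, with a single library in its sum, had both the lowest total and the highest levels of these members among them.

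With the log2 level of miR-451 relative to miR-23a, r ran from -0.43 for miR-18a (permutation p = 0.082, adjusted p = 0.17) to -0.12 for miR-20b (permutation p = 0.65, adjusted p = 0.65). rho was -0.43 for miR-18a (adjusted permutation p = 0.31) and -0.19 for miR-20b (adjusted permutation p = 0.50). Without the 2 cows farthest from the median, r was -0.14 for miR-18a and 0.20 for miR-20b.

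The other miRNAs of these clusters and their paralogs elsewhere in the genome were miR-18b, miR-92a, miR-92b, miR-363, miR-106b, miR-93 and miR-25, of which edgeR called 0 of 7 in each status comparison and in SCE cows between days, and 0 of 6 tested in healthy cows. At day 25 their median log2 fold change, SCE over healthy, was -0.40, with 3 higher and 4 lower. miR-25 had a log2 fold change of -1.19 at day 25 (SE 0.57, edgeR adjusted p = 0.25) and -0.98 over both days (SE 0.39, edgeR adjusted p = 0.21). miR-92a, which shares its primary transcripts with the members, had -0.83 at day 25 (SE 0.41, edgeR adjusted p = 0.25) and -0.030 at day 45 (SE 0.37, edgeR adjusted p = 0.98).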

How the data were processed

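Per the labels' protocols, adapters were ligated to an input of 10 to 20 ng, followed by 13 or 16 PCR cycles; which library had which is not given, and there are no molecular identifiers. The authors deposited raw counts for 800 miRNA names per library. The submitters' processing notes name bcl2fastq 2.17.1.14, build UMD3.1 and DESeq2; the sources used here do not give aligner, counter or annotation. Of 34 libraries 33 were used, and 1 copy was left out.

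Members and lists were chosen with earlier results of these data known. All miRNAs were fitted with edgeR 4.0.16 (TMM, filterByExpr, quasi-likelihood test, Benjamini-Hochberg) in R 4.3.3, with limma 3.58.1 and DESeq2 1.42.0 as alternatives, after the scripts were tested on simulated data. The threshold was an adjusted p of 0.05, two-sided. Ratios used counts plus 0.5 and exact permutation tests, and correlations used log2 CPM with a prior count of 2 and 100000 permutations. All 8 members were named, the other miRNAs of their clusters were given as a list, and the 3 miRNAs of highest Spearman's rho were named for each member. The marker lists cover red blood cells, platelets, lymphocytes, myeloid cells, liver and striated muscle.

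The same cow was sampled on both days, so the animal numbers pair the libraries. Deviations from the group means had a median correlation of 0.20 between days over 16 cows and 206 miRNAs, between -0.37 and 0.86, and over 0.1 in 10 cows. Alternatives were other size factors, library totals alone, other filters, counts without miR-486, covariates for red blood cell RNA, the cow as a block and each cow left out. The fits without 4 libraries and with limma were chosen after seeing the data. Intervals of fold changes come from the fits over libraries and include the spread between them, while floors for a count of 0 cover counting error only.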

Additional observations from a re-analysis of the deposited data

Results flagged for a closer look

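In groups of 4 to 10 libraries, a value was singled out where the gap to its nearest neighbour took up most of the group's range. Of 24 groups checked, 10 were marked. The rule marks about 1 in 20 groups by chance where values follow a normal distribution and groups are independent. Here CPM was not log-transformed and the groups share libraries, so the 10 cannot be set against that rate. Of the 10, 7 came from the day-25 library of healthy cow 4. It had 1028 CPM of miR-17-5p (next healthy library 194), 281 of miR-18a (next 42.5), 2920 of miR-19a (next 189) and 5847 of miR-19b (next 507). It also had 346 CPM of miR-20a (next 39.7), 6.93 of miR-20b (next 1.17) and 15.9 of miR-106a (next 2.58). These 7 values come from a single library and are not independent of each other.

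The day-45 library of healthy cow 3 had 2172 CPM of miR-19a, with the next healthy library at 448, and the lowest log2 ratio of miR-19b to miR-19a, 0.75, with the next at 1.59. The day-25 library of healthy cow 2 had the lowest log2 ratio of miR-106a to miR-17-5p, -9.18, with the next at -6.74; it held 2 counts of miR-106a.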

How the results depend on the processing

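No member passed the adjusted threshold under any of 141 alternatives, with a lowest adjusted p of 0.119, so the alternatives bear on directions. Of 1108 alternative values for single members and ratios, 681 with a cow left out in turn kept their direction and 45 turned. Among the other alternatives 333 kept it and 49 turned. These include fits without the 4 libraries set apart, which at day 25 repeat the fit without healthy cow 4. They also include fits with the cow as a block, which leave out healthy cow 3. Depth limits miR-20b and miR-106a most, and healthy groups hold 5 and 6 cows. Leaving out healthy cow 4 turned 5 of 8 directions at day 25, and leaving out healthy cow 3 turned 2 of 8 at day 45. With single cows left out, miR-17-5p turned in 5 and miR-18a in 6 of 16 fits at day 25. miR-19b turned in 5 of 17 fits at day 45. Library totals alone moved the median of all miRNAs to 0.88 at day 25, 0.71 at day 45 and 0.77 over both days; the members' median lay -0.41, 0.23 and 0.13 from it. A block for cow changed no call; under it miR-19b between days in SCE cows had a log2 fold change of 0.63 (edgeR adjusted p = 0.60).

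The day-change difference, SCE minus healthy, had 7 of 8 members positive with a median of 0.87; limma gave 4 of 8 and 0.083, and library totals alone and counts without miR-486 gave 6 of 8 each. The log2 fold change or log2 ratio difference turned its sign as follows, and the cause was not tested. With DESeq2 it was -0.030 for miR-17-5p and -0.043 for miR-18a, SCE over healthy at day 25, and -0.091 for miR-18a, day 45 over day 25 in healthy cows. With DESeq2 size factors in edgeR it was -0.030 for miR-17-5p and -0.046 for miR-18a, SCE over healthy at day 25, and -0.079 for miR-18a, day 45 over day 25 in healthy cows. With miR-486 left out of the counts it was 0.035 for miR-20a, SCE over healthy at day 25. With the miR-451 to miR-23a ratio as a covariate it was -3.1e-05 for miR-17-5p, SCE over healthy at day 45, and -0.015 for miR-17-5p, SCE over healthy over both days, and 0.30 for miR-20a, SCE over healthy at day 25. With the miR-486 to miR-23a ratio as a covariate it was -0.22 for miR-17-3p, SCE over healthy over both days, and -0.23 for miR-17-5p and -0.49 for miR-18a, SCE over healthy at day 25, and 0.29 for miR-19a and 0.49 for miR-19b, SCE over healthy at day 45. With library totals alone it was 0.19 for miR-106a, 0.72 for miR-20a and 0.21 for miR-20b, SCE over healthy at day 25, and -0.0056 for miR-17-5p, day 45 over day 25 in SCE cows, and -0.033 for miR-18a and -0.014 for miR-20a, day 45 over day 25 in healthy cows, and 0.050 for miR-19a and 0.43 for miR-19b, SCE over healthy at day 45. With limma on log2 CPM it was 0.14 for miR-106a, 0.22 for miR-19a, 0.10 for miR-19b, 0.78 for miR-20a and 0.36 for miR-20b, SCE over healthy at day 25, and 0.30 for miR-106a, 0.44 for miR-19a and 0.38 for miR-19b, day 45 over day 25 in healthy cows, and 0.59 for miR-19a and 0.52 for miR-19b, SCE over healthy at day 45. With a pseudocount of 5 it was -0.16 for log2 ratio miR-106a to miR-17-5p, day 45 over day 25 in healthy cows. With the cow as a block it was -0.048 for miR-17-5p, day 45 over day 25 in healthy cows. With the stricter filter it was -0.12 for miR-17-5p and -0.12 for miR-18a, SCE over healthy at day 25. Without the 4 libraries set apart it was 0.69 for miR-106a, 1.37 for miR-19a, 1.01 for miR-19b, 1.73 for miR-20a and 0.95 for miR-20b, SCE over healthy at day 25, and 0.72 for miR-106a, 1.19 for miR-19a and 1.21 for miR-19b, day 45 over day 25 in healthy cows, and 0.94 for miR-19a and 0.67 for miR-19b, SCE over healthy at day 45, and 1.35 for miR-19a and 0.97 for miR-19b, SCE over healthy over both days.

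Leaving out each cow in turn gave the ranges that follow where a sign turned. For SCE over healthy at day 25 it ran from -0.12 to 1.11 for miR-17-5p, -0.26 to 1.76 for miR-18a, -2.05 to 1.37 for miR-19a, -1.76 to 1.01 for miR-19b, -0.46 to 1.73 for miR-20a, -0.95 to 0.95 for miR-20b, -1.02 to 0.69 for miR-106a, -0.29 to 0.042 for log2 ratio miR-19b to miR-19a and -0.76 to 0.038 for log2 ratio miR-106a to miR-17-5p. For SCE over healthy at day 45 it ran from -0.62 to 1.23 for miR-19a, -0.32 to 0.85 for miR-19b and -0.24 to 0.0059 for log2 ratio miR-19b to miR-19a. For SCE over healthy over both days it ran from -0.012 to 0.77 for miR-17-5p, -1.25 to 0.21 for miR-19a, -0.88 to 0.21 for miR-19b and -0.025 to 0.70 for miR-20b. For day 45 over day 25 in healthy cows it ran from -0.20 to 1.58 for miR-17-5p, -0.0070 to 0.98 for miR-17-3p, -0.58 to 2.12 for miR-18a, -1.98 to 3.14 for miR-19a, -1.32 to 2.47 for miR-19b, -0.33 to 2.50 for miR-20a, -1.16 to 1.05 for miR-106a, -0.081 to 0.26 for log2 ratio miR-19b to miR-19a, -0.22 to 0.50 for log2 ratio miR-20a to miR-17-5p and -0.35 to 0.39 for log2 ratio miR-106a to miR-17-5p. For day 45 over day 25 in SCE cows it ran from -0.074 to 0.040 for log2 ratio miR-19b to miR-19a.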
